A study of Mus musculus with 4 samples.

Results

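Potassium channel genes were followed in RNA from whole mouse retina at postnatal day 8, in wild-type mice (WT) and in Opn4-DTA/DTA mice. The members are the rows of the gene table whose symbol starts with Kcn followed by a letter, without the noncoding Kcnq1ot1. They number 94 of 23336 genes. The 80 members whose mean over the libraries reached 10 normalized counts are described and tested, and the other 14 are accounted for at the end. A normalized count is a gene's read count divided by the size factor of its library, which corrects for sequencing depth. By their symbols the members fall into 11 families of pore-forming and auxiliary subunits, and a few of the auxiliary ones, such as Kcnip3 and Kcnrg, also have roles outside channels.

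Both groups were of the C57/Bl6 strain, with 2 libraries each. WT mice carried intact Opn4, the gene of the ganglion cell photopigment melanopsin. In Opn4-DTA/DTA mice both copies carried diphtheria toxin A, which kills the cells that make it, so that loss of melanopsin and loss of these cells cannot be told apart. The labels do not say how many animals a library held, and they name both dissociated retinal cells and whole extracts.

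Potassium channels set the resting potential of retinal neurons, shape their spikes and light responses, and let glia take up potassium released by activity. In rods and cones, Kv8.2, the product of Kcnv2, is a silent subunit that modifies the channel keeping the dark potential in its working range. Muller glia rely on the inward rectifier Kir4.1 of Kcnj10, and pigment epithelium on Kir7.1 of Kcnj13. Melanopsin ganglion cells signal in part by closing leak channels of the tandem-pore family in mouse.

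The deposited table holds means per group, and the values per library below were recovered from them. The libraries could not be tied to sample labels and are called a and b, where a is the deeper library of its group. Total counts ranged from 22202382 to 60833968 per library, and 3 counts correspond to between 1.64 and 4.59 normalized counts. Opn4 had 428 and 246 normalized counts in the WT libraries, and 0.546 and 0 normalized counts in the libraries of Opn4-DTA/DTA retina, which matches the labels. Markers of photosensitive ganglion cells, 11 with Opn4, summed to 6061 and 5242 in WT and to 4943 and 4764 in Opn4-DTA/DTA libraries. Of these, 3 had a log2 fold change above 0, and only Opn4 had an adjusted limma p under 0.05. How many of these cells were left was not tested. Retinal markers were present in every library, with 18 rod markers summing to between 809460 and 983068 normalized counts. The WT libraries differed from each other at least 1.5-fold in 10.7% of the 15003 genes tested, and the Opn4-DTA/DTA libraries in 3.31%. Tests were made with limma on log2(normalized count + 1) over all 15003 genes. Values are listed as WT a, WT b, Opn4-DTA/DTA a and Opn4-DTA/DTA b. In whole retina, fewer cells of a type and less RNA per cell cannot be told apart. An exact permutation test of 2 against 2 libraries cannot go below p = 0.333.

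No potassium channel gene passed the threshold of 0.05 on the adjusted p in limma, where 0.02% of all genes did. The adjusted p was 0.9997 for every one of the 80 members. Without adjustment, 6 of 80 members (7.5%) had a limma p under 0.05, against 1.66% of all genes tested. Of these, 5 were higher in Opn4-DTA/DTA, namely Kcnf1, Kcnj14, Kcnip2, Kcna4 and Kcnt2, and 1 was lower, Kcne2. The corresponding shares of all genes were 0.993% higher and 0.667% lower. Both Opn4-DTA/DTA libraries lay above both WT libraries for 26 of 80 members, against 11.2% of all genes, and below them for 6 of 80, against 12.3%. The log2 fold change was above 0 for 54 of 80 members, against 50% of all genes. Its median was 0.09 over the members (quartiles -0.04 and 0.23) and 0.00 over all genes. The group means differed at least 1.5-fold in 4 of 80 members, against 2.37% of all genes, and these were Kcnt2, Kcnip2, Kcne4 and Kcnj16. Kcnj16, also among the 26, averaged 8.65 in WT and 13.3 in Opn4-DTA/DTA. It reached the minimum of 10 only through Opn4-DTA/DTA library b at 17.4, so its place in these counts carries no weight. In the authors' deposited table no member passed at an adjusted p of 0.05 either, and the lowest adjusted p was that of Kcnf1 at 0.377. There 6 members had an unadjusted p under 0.05, against 2.2% of all genes.

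The tilt towards higher values depended on the WT libraries. Without WT library b, 43 of 80 members were above 0 and the median was 0.04, and without WT library a 58 of 80 were above 0 and the median was 0.16. The shares of all genes above 0 were then 49.7% and 47.9%. Without Opn4-DTA/DTA library a or b, 52 and 53 members were above 0, against 50.4% of all genes in either case. Between leaving out WT library a and leaving out WT library b, 35 of 80 members differed in direction, and 37 turned with at least 1 of the 4 libraries left out. The share of all genes that turned is not given, so these 2 counts do not set the members apart from other genes. Marker sums differed between libraries as well. Ganglion cell markers summed to 86877, 55861, 73147 and 73610 normalized counts, with 13 of 16 at a log2 fold change above 0, and amacrine markers to 65387, 58502, 66958 and 63935, with 11 of 14 tested above 0. All 18 rod and all 15 bipolar markers were below 0. Their part in the tilt was not tested. WT library b was above WT library a for 30 of 80 members, against 49.7% of all genes. The WT libraries differed at least 1.5-fold in 12 of 80 members, and the Opn4-DTA/DTA libraries in 1.

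**Figure D1:**
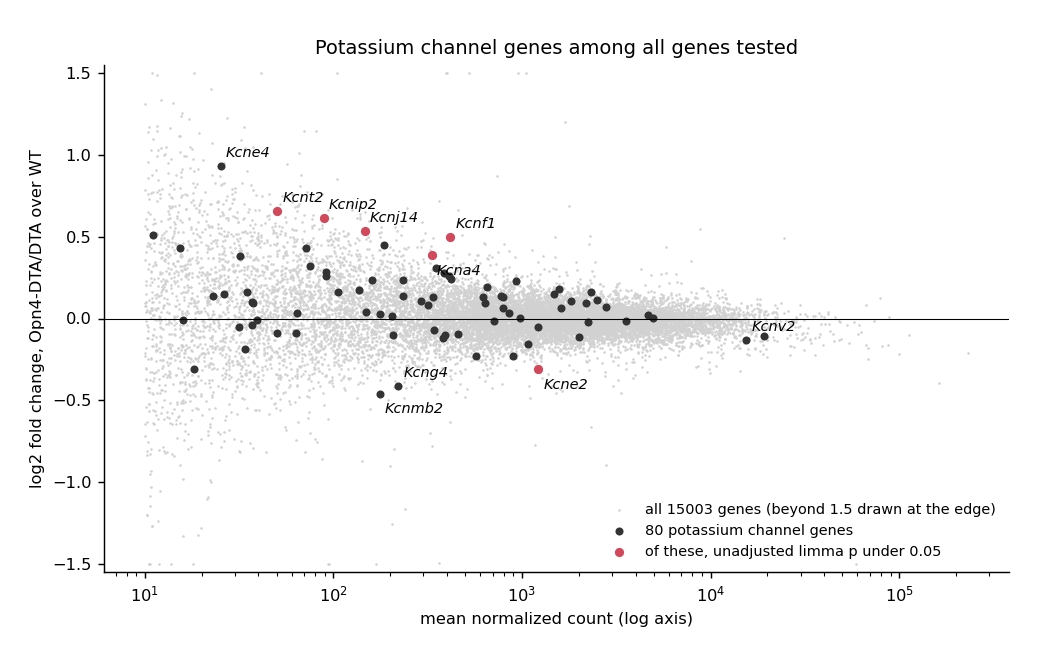
Log2 fold change of Opn4-DTA/DTA over WT on the vertical axis against the mean normalized count on a logarithmic axis, for all 15003 genes tested (grey) and the 80 potassium channel genes (black, with the 6 of unadjusted limma p under 0.05 in red). Most members lie within the grey cloud, 54 of 80 of them above 0.

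Upstream bases are shown for 3 of the 6 members with the lowest p, because these have an entry in the RefSeq promoter table of GRCm38.p6 whose start lies in a GENCODE transcript. Each run is the 250 bases before the start, 5′ to 3′ on the gene's strand, and capitals mark a GC box. For Kcnf1 the run is chr12:17176889-17177138 (minus strand), for Kcnip2 chr19:45816064-45816313 (minus) and for Kcne2 chr16:92292139-92292388 (plus). The Kcnf1 run was chosen by the symbol, whereas the deposited position of that row is that of Kcnj2, as described below. The Kcnip2 run lies within the RefSeq span of the gene, from 45792346 to 45816422, which reaches further upstream than the start used.
Kcnf1: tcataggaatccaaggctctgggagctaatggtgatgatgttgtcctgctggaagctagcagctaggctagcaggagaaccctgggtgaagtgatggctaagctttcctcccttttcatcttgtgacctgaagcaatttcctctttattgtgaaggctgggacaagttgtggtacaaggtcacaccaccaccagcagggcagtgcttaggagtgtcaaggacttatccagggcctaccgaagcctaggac
Kcnip2: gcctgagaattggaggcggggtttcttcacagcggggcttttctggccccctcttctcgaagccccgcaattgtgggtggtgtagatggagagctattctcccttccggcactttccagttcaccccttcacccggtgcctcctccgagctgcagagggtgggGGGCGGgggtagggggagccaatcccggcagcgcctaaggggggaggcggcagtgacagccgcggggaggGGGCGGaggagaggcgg
Kcne2: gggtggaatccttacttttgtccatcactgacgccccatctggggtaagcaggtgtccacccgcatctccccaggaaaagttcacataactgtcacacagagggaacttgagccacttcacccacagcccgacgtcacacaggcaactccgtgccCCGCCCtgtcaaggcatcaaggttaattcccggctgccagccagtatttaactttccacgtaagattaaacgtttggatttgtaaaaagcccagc
The letters searched on both strands were GGGCGG, the GC box bound by Sp factors, TAATCC, the core bound by the photoreceptor factor CRX, and CAGCTG, an E-box bound by bHLH factors, and none of the motifs contains another. Kcnip2 held 2 GC boxes and Kcne2 held 1, while none of the 3 sets of letters was found for Kcnf1. Of 80 promoter entries that belong to 56 members, 43.8% held a GC box, 26.2% the E-box and 2.5% the CRX core. The shares over all 32851 promoter entries of the same length were 32.7%, 13.0% and 6.25%. The GC content was 51.2% for Kcnf1, 66.8% for Kcnip2 and 52.4% for Kcne2, and the median was 58.8% over the members' entries and 52.4% over all entries.

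The photoreceptor subunit Kcnv2 had 13887, 18562, 13950 and 15390 normalized counts. The groups overlapped and the log2 fold change was -0.13 (SE 0.14), moving to -0.34 with WT library a left out and 0.08 with b left out. Per kilobase of exon, Kcnv2 was the highest member at 3024 normalized counts. Rod markers in the 4 libraries summed to 983068, 857066, 809460 and 824570, with all 18 at a log2 fold change below 0 and no marker at 0, and their part in the values of Kcnv2 was not tested. Kcnb2, the Kv2.2 subunit, averaged 402 ± 28.7 normalized counts for WT and 374 ± 24.3 for Opn4-DTA/DTA, where ± is the SD over the 2 libraries here and below.

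**Figure D2:**
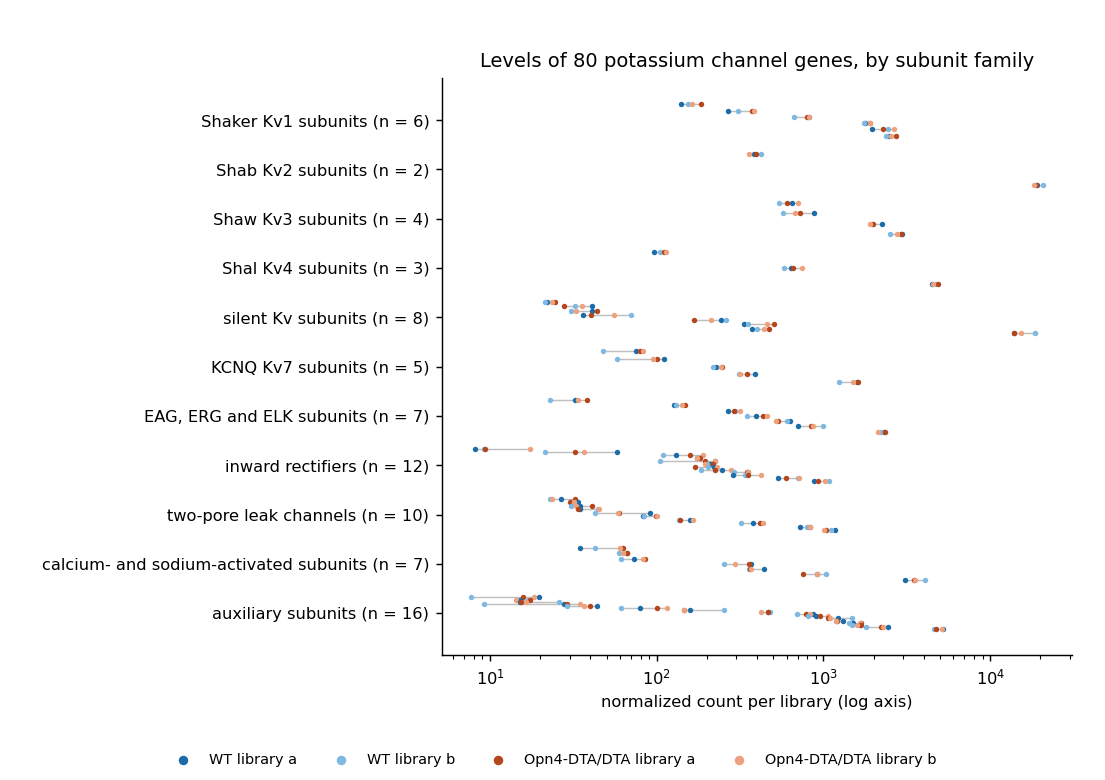
Normalized counts on a logarithmic axis for the 80 members in each of the 4 libraries, grouped by subunit family, 1 line of points per gene. Kcnv2 runs from 13887 to 18562, and the libraries of a gene mostly lie close together compared with the distance between genes.

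All 6 tested Shaker-type Kv1 subunits, which set spike threshold and axonal excitability, had log2 fold changes above 0, against 50% of all genes. In 4 of the 6 both Opn4-DTA/DTA libraries exceeded both WT libraries, against 11.2% of all genes, and the family median was 0.15. When 1 WT library was left out, the log2 value of Kcna1 reached -0.01 and that of Kcna5 0.00. Kcna4, the A-type Kv1.4 subunit, had 266, 309, 371 and 381 normalized counts. Its log2 fold change of 0.39 (SE 0.15) lay between 0.28 and 0.50 when 1 library was left out. The axonal Kcna2 averaged 2413 ± 64.6 (WT) and 2614 ± 128 (Opn4-DTA/DTA). Kcna5, the Kv1.5 subunit also known from heart muscle, was the highest Kv1 subunit per kilobase at 816 normalized counts. It had 1963, 2447, 2261 and 2665, so that the spread within each group exceeded the difference between the group means. Kcna1 stood at 740 ± 107 and 809 ± 10.7, and Kcna3, the Kv1.3 subunit known from T cells and microglia, at 147 ± 8.93 and 173 ± 15.8. Kcna6 stood at 1762 ± 15.8 and 1894 ± 7.15 with its groups apart and a log2 fold change of 0.10 (SE 0.09).

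The Shaw-type Kv3 subunits, which let neurons fire fast, showed no group apart in any of 4 genes, against 23.5% of all genes. Kcnc1 had 2951, 2488, 2915 and 2778 normalized counts, and Kcnc2 649, 542, 605 and 699. The Kv3.4 subunit Kcnc4 differed 1.54-fold within WT, at 875 and 569, against 720 and 675 in Opn4-DTA/DTA. Of 3 Shal-type Kv4 subunits, which carry A-type currents, Kcnd1 and Kcnd2 lay higher in both Opn4-DTA/DTA libraries, against 11.2% of all genes. Kcnd2 had 641, 582, 654 and 747 normalized counts (log2 fold change 0.20, SE 0.13). Kcnd1 stood at 100.2 ± 5.48 and 112 ± 1.94. Kcnd3, the highest Kv4 subunit per kilobase at 613, had normalized counts of 4502, 4738, 4878 and 4520, so that its groups overlapped.

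Kcnf1 had the lowest limma p of all members. Its product Kv5.1 is a silent subunit, which forms no channel on its own and modifies Kv2 channels. Its normalized counts were 332, 354, 508 and 461, with both Opn4-DTA/DTA libraries above both WT libraries. The mean was 1.41-fold higher in Opn4-DTA/DTA (log2 fold change 0.50, SE 0.14), and between 0.43 and 0.57 on the log2 scale when 1 library was left out. Its adjusted limma p with all 4 libraries was 0.9997. The row's identity carries a limit. The deposited description and position of the row named Kcnf1 are those of Kcnj2 on chromosome 11, from 111066164 to 111076825, whereas RefSeq places Kcnf1 on chromosome 12, from 17172100 to 17176888 (GRCm38). Kcnf1 is also listed in RefSeq as a synonym of Kcnj2. The counts of the rows named Kcnf1 and Kcnj2 differ, and the symbol is used here. The row named Kcnk6 likewise carries the description and position of Kcnk7, and over the whole table the chromosome differed from RefSeq for 1.38% of 20755 symbols.

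Kcng4, the silent Kv6.4 subunit, went the other way. It is known from a Cre line that marks alpha ganglion cells, which include a melanopsin type, and some bipolar cells. Its normalized counts were 241, 262, 168 and 212, with both Opn4-DTA/DTA libraries below both WT libraries. The log2 fold change was -0.41 (SE 0.18) and ranged from -0.58 to -0.25 when 1 library was left out. Bipolar markers summed to 88121, 101183, 80059 and 86732 normalized counts, with all 15 below 0 and none at 0, and the sums of ganglion cell markers are those given before. Their part in the value of Kcng4 was not tested. Among the other silent subunits Kcns2 averaged 385 ± 18.8 (WT) and 455 ± 24.3 (Opn4-DTA/DTA) with groups apart, and Kcng1 was low at 21.7 ± 0.440 and 24.1 ± 0.731. Of 8 tested silent subunits 4 were above 0 and 4 below, against 50% of all genes above 0.

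**Figure D3:**
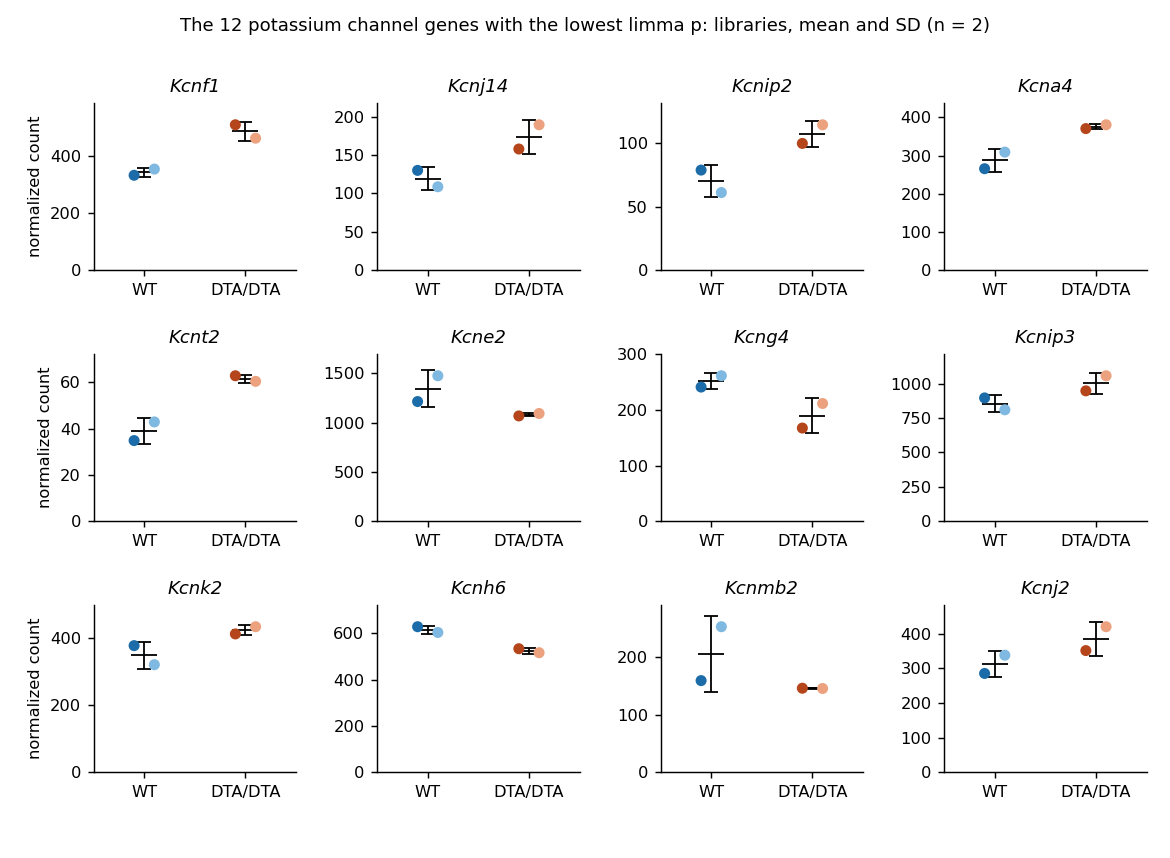
Normalized counts of the 12 members with the lowest limma p, 1 panel per gene with an axis from 0. Points are the 2 libraries of each group (library a dark and on the left), with the mean and SD in black. In each of the 12 genes both libraries of 1 group lie apart from both of the other, as in 23.5% of all genes. The choice by p from these same libraries favours such genes.

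Of 5 Kv7 subunits, which include those of the M-current that damps repeated firing, 4 were above 0, against 50% of all genes. Kcnq1, low in retina, had 75.4, 47.4, 79.2 and 82.9. Its log2 fold change was 0.43 (SE 0.28), and 0.10 without WT library b. Among 7 subunits of the EAG, ERG and ELK type, Kcnh6 of the ERG group was lower in both Opn4-DTA/DTA libraries, at 628, 603, 533 and 516. Its log2 fold change was -0.23 (SE 0.12). Kcnh1, the EAG subunit, had 395, 349, 431 and 458 normalized counts, with its groups apart in the higher direction (log2 fold change 0.26, SE 0.14). Kcnh2, the highest of the family per kilobase at 484, lies on chromosome 5 from 24319589 to 24351684 and had normalized counts of 2268 ± 71.4 and 2233 ± 155. Kcnh4 stood at 27.7 ± 6.74 and 36.0 ± 3.15.

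Inward rectifiers pass potassium more easily into the cell than out of it. Of 12 tested, 10 were above 0, against 50% of all genes, and the family median was 0.11. In 3 of the 12, Kcnj14, Kcnj2 and Kcnj16, the groups were apart in the higher direction, against 11.2% of all genes. Kcnj16 carries no weight in these counts, as stated before. Kcnj14, the Kir2.4 subunit, had 130, 109, 158 and 189 normalized counts. Its mean was 1.45-fold higher in Opn4-DTA/DTA (log2 fold change 0.54, SE 0.20), and between 0.41 and 0.67 on the log2 scale when 1 library was left out. Kcnj2, the Kir2.1 subunit, had 285.5, 338, 352 and 421, with a log2 fold change of 0.31 (SE 0.16). Kcnj16, near the minimum of 10, had 8.12, 9.18, 9.28 and 17.4, so that 1 library was high and the groups did not overlap.

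The groups overlapped for the glial rectifier Kcnj10. It had 874, 1080, 931 and 1020 normalized counts (log2 fold change 0.00, SE 0.14). Muller glia markers summed to between 104649 and 111835 normalized counts, with 4 of 13 above 0. The values of 2 rectifiers known from other cell types depended on which WT library was used. Kcnj13 of pigment epithelium had 58.0 and 21.4 in WT against 32.2 and 36.8, and its log2 fold change was 0.66 with WT library a left out and -0.74 with b left out. Pigment epithelium markers summed to 14157 and 6676 in WT and for Opn4-DTA/DTA to 8779 and 7145. Of the 14 markers 3 had a log2 fold change above 0 and none was at 0 counts. Kcnj8, the Kir6.1 subunit known from pericytes, had 224 and 104 in WT against 195 and 223. Dropping WT library a gave Kcnj8 a log2 fold change of 0.996, whereas dropping b gave -0.10. Vessel and pericyte markers summed to 23097, 21427, 22653 and 22120, with 11 of 14 above 0 and none at 0. The pericyte marker Pdgfrb had 716, 542, 669 and 589. Their part in the values of Kcnj8 and Kcnj13 was not tested.

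Tandem-pore leak channels hold the resting potential. Of 10 tested, 6 were above 0, against 50% of all genes. In 3 both Opn4-DTA/DTA libraries lay above both WT libraries, against 11.2% of all genes. In 1 both lay below them, against 12.3%. Kcnk2, the mechanosensitive TREK-1 channel, had 378, 321, 413 and 435 normalized counts (log2 fold change 0.28, SE 0.15). Its relative Kcnk10 had 82.4, 84.2, 99.4 and 100.3, and Kcnk1 stood at 758 ± 55.9 and 830 ± 7.08. Kcnk3, the acid-sensitive TASK-1 channel, had 1172, 1106, 1036 and 1012, with both Opn4-DTA/DTA libraries lower (log2 fold change -0.15, SE 0.11). Kcnk9, the TASK-3 channel, overlapped between groups at 158, 136, 138 and 165. Kcnk13, which microglia express, stood at 24.8 ± 2.64 and 27.9 ± 6.14.

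Among 7 subunits of the calcium- and sodium-activated families, which include the related Kcnu1 gated by pH and voltage, Kcnt2 had the lowest p. It encodes the sodium-activated channel Slick and had 34.8, 42.9, 62.8 and 60.4 normalized counts. The mean was 1.59-fold higher in Opn4-DTA/DTA (log2 fold change 0.66, SE 0.26), and between 0.51 and 0.80 on the log2 scale when 1 library was left out. Kcnma1, the pore of the large-conductance BK channel, was the highest of the family per kilobase at 275. Its normalized counts were 3099, 4082, 3510 and 3515. It lies on chromosome 14, as Opn4 does, 10.9 Mb away, and its log2 fold change was -0.02 (SE 0.14). Kcnk5 and Kcnrg on the same chromosome, 14.4 and 27.0 Mb away, had log2 fold changes of 0.16 (SE 0.30) and 0.09 (SE 0.32). Kcnn1, the SK1 subunit of small conductance, had 909, 1030, 750 and 910, so that its groups overlapped by a single library.

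**Figure D4:**
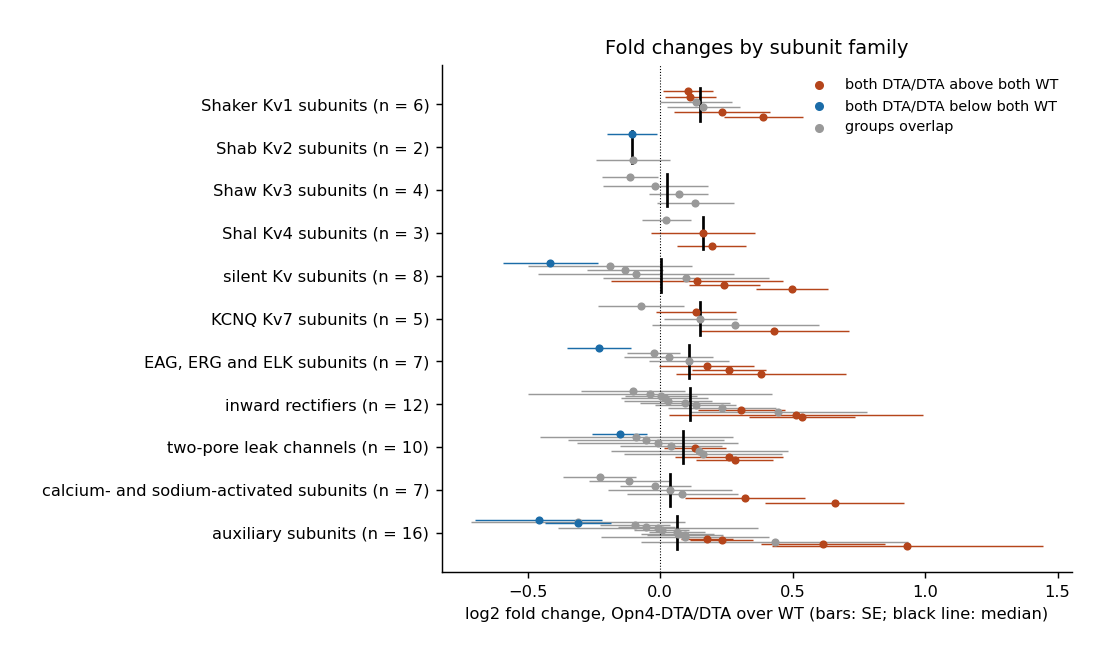
Log2 fold change with its SE for each of the 80 members by family, coloured by whether both libraries of 1 group lay above both of the other. The black line marks the median of each family, which is 0.15 for Kv1 subunits and 0.11 for inward rectifiers.

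Of 16 tested auxiliary subunits, 10 were above 0 and 6 below, against 50% of all genes above 0. The groups were apart in the higher direction for 4 and in the lower for 2, against 11.2% and 12.3% of all genes. Kcnip2, a calcium sensor that joins Kv4 channels, had 78.9, 61.2, 99.9 and 114.6 normalized counts. Its mean was 1.53-fold higher in Opn4-DTA/DTA (log2 fold change 0.62, SE 0.23). The related Kcnip3, which also acts as the transcriptional repressor DREAM, had 896, 810, 947 and 1057 (log2 fold change 0.23, SE 0.12). The other members of this group differed less, with Kcnip1 at 2121 ± 439 and 2238 ± 39.5 and Kcnip4 at 1309, 1183, 1210 and 1190. The beta subunit Kcnab1 of Kv1 channels had 1513, 1422, 1673 and 1645, with groups apart and a log2 fold change of 0.18 (SE 0.10). Kcnab2, the highest auxiliary subunit per kilobase at 1192, had normalized counts of 4920 ± 441 and 4933 ± 305.

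Kcne2 was the single member with a p under 0.05 in the lower direction. Its product is a small subunit with 1 membrane span that alters Kcnq1 and Kcnh2 channels and is prominent in choroid plexus. It had 1215, 1477, 1069 and 1094 normalized counts, with both Opn4-DTA/DTA libraries below both WT libraries. The mean was 1.24-fold higher in WT (log2 fold change -0.31, SE 0.12). Dropping WT library a moved the log2 value to -0.45, and dropping b moved it to -0.17. Pigment epithelium markers and Ttr, which choroid plexus shares with that epithelium, were higher in WT library a than in WT library b (Ttr 3365 and 1307 normalized counts), and Kcne2 was higher in WT library b. Their part in the values of Kcne2 was not tested. Per kilobase, Kcne2 stood at 687 normalized counts, and Kcne1l, which the deposited description calls a pseudogene, at 1038.

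Kcnmb2, an inactivating beta subunit of BK channels, had 159, 253, 146 and 145 normalized counts. Its log2 fold change was -0.46 (SE 0.24), moving to -0.79 without WT library a and to -0.13 without WT library b. Kcnmb4, the neuronal beta subunit, stood at 776 ± 119 and 808 ± 34.3. Kcnmb1, the beta subunit of smooth muscle, had 19.7, 7.65, 15.8 and 18.4, so that WT library b alone was low. Kcnmb1 lies within Kcnip1 on the opposite strand, and the libraries are directional, but whether the counting used strand is not given in the sources used here. Kcne4, an inhibitory small subunit named after its values were seen, had 27.9, 9.18, 28.9 and 34.8. Its log2 fold change of 0.93 (SE 0.51) rose to 1.68 on dropping WT library a and fell to 0.18 on dropping b.

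**Figure D5:**
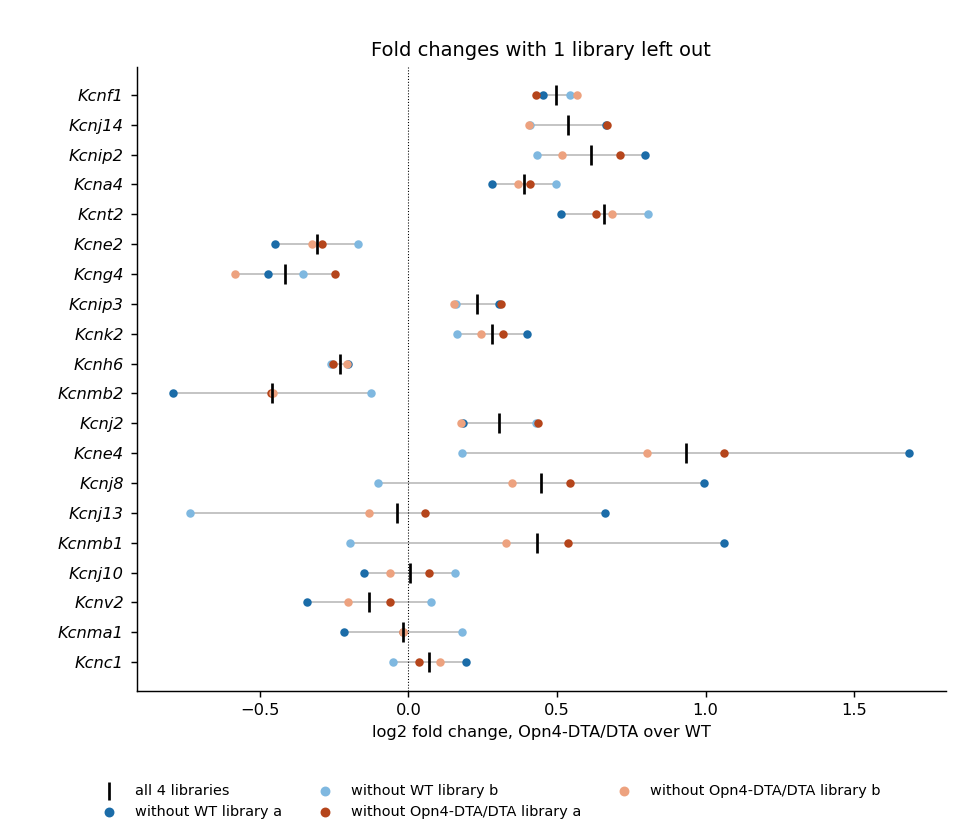
Log2 fold change of Opn4-DTA/DTA over WT for 20 members with all 4 libraries (black bar) and with each library left out (points, coloured by the library left out). Kcnf1 stays between 0.43 and 0.57, whereas Kcnj13 runs from -0.74 to 0.66 between leaving out the b and the a library of WT.

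Without WT library a, 5 of 80 members passed the threshold in limma, against 2.04% of all genes. These were Kcnj8 and Kcne4 in the higher and Kcne2, Kcnmb2 and Kcnv2 in the lower direction. A fit with 1 library left in a group takes its spread from the other group's pair alone. Here that was the Opn4-DTA/DTA pair, which differed at least 1.5-fold in 3.31% of all genes, against 10.7% for the WT pair. The counts in this paragraph therefore leave out the variation within 1 group, and no conclusion is drawn from them. No member passed without WT library b, Opn4-DTA/DTA library a or Opn4-DTA/DTA library b, where 1.58%, 0.0667% and 0.127% of all genes did. An unadjusted p under 0.05 was found for 26 members without WT library a, against 19.1% of all genes, and for 14 without WT library b, against 16.1%. It was found for 0 members without Opn4-DTA/DTA library a, against 0.613% of all genes, and for 1, Kcnf1, without Opn4-DTA/DTA library b, against 0.833%.

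Partners that carry other symbols were covered by a list of 25 genes, of which 23 were tested. In limma no partner passed the threshold and none had an unadjusted p under 0.05, against 1.66% of all genes. In the authors' deposited table Dlg2 had an unadjusted p of 0.0106 and an adjusted p of 0.9997. Of the 23 partners 14 were above 0, against 50% of all genes, and the median log2 fold change over the 23 was 0.02. The lowest p was that of Dlg2, a scaffold that clusters Kv1 channels, with 10633, 10973, 12381 and 12017 normalized counts (log2 fold change 0.18, SE 0.09). Dlg4, or PSD-95, had 21778, 18307, 17678 and 17990. The BK gamma subunit Lrrc38 had 101, 87.2, 118 and 121, and Lrrc55 of the same group had 323, 338, 275 and 297. Abcc9, the sulfonylurea receptor that pairs with Kcnj8, had 663, 574, 699 and 735, with groups apart (log2 fold change 0.22, SE 0.13).

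The 14 members under a mean of 10 were not tested. Kcnk16 and Kcnk18 had no count in any library, which allows up to 3 counts, or up to 4.59 normalized counts in the shallowest library. Kcnk7, Kcna10, Kcna7, Kcnmb3, Kcnj4, Kcnj1, Kcnk15, Kcnh3, Kcng3, Kcns3, Kcnn4 and Kcnj15 were detected, at means of 0.273 to 9.68. Just under the minimum, Kcnj15 had 5.80, 4.59, 10.9 and 17.4 normalized counts and Kcns3 had 12.8, 6.12, 6.55 and 11.3. Just above it were Kcnj16 at a mean of 11.0 and Kcnmb1 at 15.4. Kcnn4, a calcium-activated channel of blood and immune cells, had 17.4, 3.06, 7.64 and 4.09.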

How the data were processed

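RNA was measured in 4 libraries of whole mouse retina at postnatal day 8, with 2 WT and 2 Opn4-DTA/DTA libraries. Per the labels' protocols, polyadenylated RNA was made into directional libraries. The submitters' processing notes name FastQC, STAR, HTSeq, DESeq2 and mm10, and their versions are not given in the sources used here. The authors deposited 1 table with group means of normalized counts, a signal obtained by dividing counts by size factors. The same deposited table holds the authors' log2 fold changes, test scores and p-values.

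The whole counts behind each mean were solved as the pair of library counts that gives it, within a relative tolerance of 3e-13. All 17757 WT and 18327 Opn4-DTA/DTA means had 1 solution, and size factors recomputed from the recovered counts differed by at most 2.03e-05. The means do not say which library belongs to which sample label. Where 1 sample a group is left out, the other is assumed to vary like the rest. Counts of genes under a p are listed for such fits, but no conclusion is drawn from them. Only the log2 fold changes of these fits are read.

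Limma 3.58.1 in R 4.3.3, with a trend, was run on log2(normalized count + 1) for 15003 genes with a mean of at least 10, with Benjamini-Hochberg adjustment and a threshold of 0.05. The method was tested on simulated counts with 1 spread common to all genes and both groups. In the real libraries the WT pair differed more than the Opn4-DTA/DTA pair, so that test does not measure how limma performs on them. Since nothing says that libraries came from separate animals, a p-value here reflects no more than how these libraries vary, which may be technical. Intervals and floors of 3 counts cover counting error only. Lengths per kilobase are merged exons of GENCODE M21.

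The members and lists were chosen with earlier results of these data known. Members were named by rule: the 12 highest per kilobase, the 12 of lowest p, those past the threshold, those with a known role in retina, the highest and lowest of each family, and the 5 partners of lowest p. A member outside the rule is named where its values bear on a count. Alternatives were other pseudocounts, no filter, library totals, no trend, voom, thinned counts, a minimum of 50, the authors' test and each library left out. Results for some members that the rule would name are not reported here.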

Additional observations from a re-analysis of the deposited data

How the results depend on the processing

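Of all genes, 3 passed the threshold with 4 libraries, 0 without the trend, 17 in the authors' deposited test, and 10 to 306 when 1 library was left out. Potassium channel genes past the threshold numbered 0 with all libraries and 0 to 5 when 1 was left out. Those with an unadjusted p under 0.05 numbered 6, and 0 to 26 when 1 library was left out. Their median log2 fold change was 0.0946, against 0.0190 in the authors' deposited test, whose fold changes are shrunken, and 0.0353 to 0.158 when 1 library was left out. Groups that did not overlap numbered 32 of 80, against 23.5% of all genes. They numbered 34 under library totals and 34 with thinned counts. With no filter they numbered 35, with members under a mean of 10 included, and with a minimum of 50 they numbered 28 among fewer members. Shares of all genes are not given for these settings, so these counts are not set against other genes. Scaling by library totals moved the median of all genes to 0.03 and that of the members to 0.12, and turned the direction of 5 of 80 members, as thinning did for 7. Direction turned in 37 of 80 members under at least 1 left-out library, and in none with other pseudocounts, no filter, no trend or voom. The share of all genes that turned is not given, and the cause of these differences was not tested. No paired analysis was possible because the recovered libraries carry no replicate numbers. With 2 libraries a group, differences of low genes are poorly resolved, and 3 counts stand for up to 4.59 normalized counts.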
